A study of Mus musculus with 62 samples.

Results

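The cytochrome P450 genes (Cyp) were described in RNA-seq of liver, subcutaneous fat (SAT) and visceral fat (VAT) from mice lacking Fam13a. A gene was taken as a member when its Ensembl identifier matched a protein-coding mouse symbol of Cyp followed by a number, and Cyp51 was left out. The rule used no measured value and found 99 members among 48795 genes of the count table. The largest classes were CYP4 with 20 genes, CYP2C with 15, the CYP2A, 2B, 2F, 2G, 2S, 2T and 2W group with 15, and CYP3A with 9. CYP2D and CYP2J held 8 genes each, the steroid hormone class 6, the sterol and bile acid class 6, the retinoid and vitamin D class 5 and CYP1 3. The remaining members were the pair Cyp2r1 and Cyp2u1, and Cyp2e1 and Cyp20a1 each alone.

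P450 enzymes are haem proteins that insert an oxygen atom into lipids, steroids, bile acids and foreign compounds, with electrons from P450 oxidoreductase in the endoplasmic reticulum or from ferredoxin in mitochondria. The liver is their main site, where members of families CYP1, CYP2 and CYP3 oxidise drugs, the CYP4A enzymes hydroxylate the terminal carbon of fatty acids under the control of PPARα, and Cyp7a1, Cyp8b1, Cyp27a1 and Cyp7b1 build bile acids from cholesterol. Several hepatic members differ between the sexes in mice through the pattern of growth hormone release, and many are transcribed most in hepatocytes around the central vein.

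The study compared knockout (KO) mice carrying a whole-body deletion of Fam13a, made from a targeted embryonic stem cell line with exon 5 between LoxP sites, with wild-type (WT) controls on a C57BL6 background. Livers came from males on chow (18% of calories from fat) or on a high-fat diet (HFD, 45% of kcal from fat), with 4 libraries for each diet and genotype. Inguinal SAT and gonadal VAT came from males on both diets and from females on HFD, with 3 libraries in each female WT group and 4 in every other group, giving 62 libraries in 16 groups. HFD began at 8 weeks of age and lasted 14 weeks, so that these mice were killed at 22 weeks, while the age at which the sequenced chow tissues were taken was not given in the sources used here, and an age difference between the diets was not tested. Male chow libraries of each tissue filled a sequencing lane of their own and HFD libraries were on other lanes, so diet and lane cannot be told apart. Female and male fat shared no lane, and male SAT and VAT shared a lane in 1 SAT library only, so sex and lane, and almost wholly depot and lane, cannot be told apart either. In the paper's histology methods mice were fasted overnight before liver and fat were taken. Whether the sequenced tissues came from fasted mice is not stated there, and an effect of fasting was not tested. The labels do not state that the samples of a group were separate animals, and p-values then measure only the spread between these samples, which may be technical.

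Libraries held 4959783 to 28723319 counts, with a median of 21694089. Counts of nuclear ribosomal RNA took 0.0127% to 75.4% of a library, and the HFD KO liver replicate 3, with 75.4%, was also the shallowest. Hepatocyte markers summed to at least 47285 CPM in every liver library and adipocyte markers to at least 6882 CPM in every fat library. Fam13a was lower in KO libraries as a rule, at 10.8 to 16.9 CPM against 19.3 to 24.8 CPM in WT livers on HFD. Of 32 KO libraries, however, 8 reached the lowest WT library of the same tissue, sex and diet. They included the chow liver library labelled KO replicate 4 (39.1 CPM, against 28.7 to 46.6 CPM in WT), 1 chow VAT library labelled KO (replicate 4, 333.8 CPM, against at least 304.7 CPM in WT), 3 male HFD VAT libraries and 3 female libraries. Genotype comparisons below therefore follow the labels.

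Most P450 genes were expressed in liver. With a mean of at least 1 TPM in a group as the limit, 61 members were expressed in liver, 50 in fat and 38 in both. A further 26 were below that limit everywhere, among them Cyp19a1 (aromatase), Cyp24a1 and Cyp27b1 of vitamin D turnover, the adrenal Cyp11b1 and Cyp11b2, and the female-predominant Cyp3a41a, Cyp3a41b and Cyp3a44. No female liver was sequenced. Of the 50-base stretches of Cyp3a41a and Cyp3a41b, 98.6% and 93.5% occur in another gene, so their low counts need not mean low expression. Cyp2t4 received no count in any library. Because the tissues are bulk samples, fewer cells of a type and less RNA per cell cannot be told apart. For 31 members over 20% of 50-base stretches of the transcript also occur in another gene. Reads from such stretches cannot always be assigned to a single copy, so the levels of such genes are less certain.

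On the TPM scale, which is per transcript length, Cyp2e1 (oxidation of ethanol and small ketones) led with 4279 ± 1627 TPM (SD, n = 4) in WT livers on chow, 21.1% of all P450 TPM. Cyp4a14 followed with 4129 ± 712 TPM and Cyp4a10 with 2439 ± 512 TPM, both fatty acid hydroxylases. Cyp2e1 and Cyp4a14 did not differ beyond their spread, and replicates 1 and 3 held more Cyp4a14 (4758 and 3584 TPM) than Cyp2e1 (3671 and 2333 TPM). The drug-metabolising Cyp3a25 and Cyp3a11 stood at 1332 ± 164 and 1174 ± 337 TPM, also within their spread of each other. Cyp8b1, the sterol 12α-hydroxylase that sets the share of cholic acid, reached 850 ± 200 TPM, Cyp2d9 620.9 ± 260 TPM, Cyp2d26 507 ± 37.2 TPM, Cyp2f2 412 ± 97.1 TPM and Cyp2j5 402 ± 40.2 TPM. These 10 genes made 79.4% of P450 TPM in that group, and the 10 most abundant of each liver group made 74% to 80.8%. All members together made 1.65% to 2.28% of TPM in WT chow livers and 1.75% to 1.88% in WT HFD livers.

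**Figure D1:**
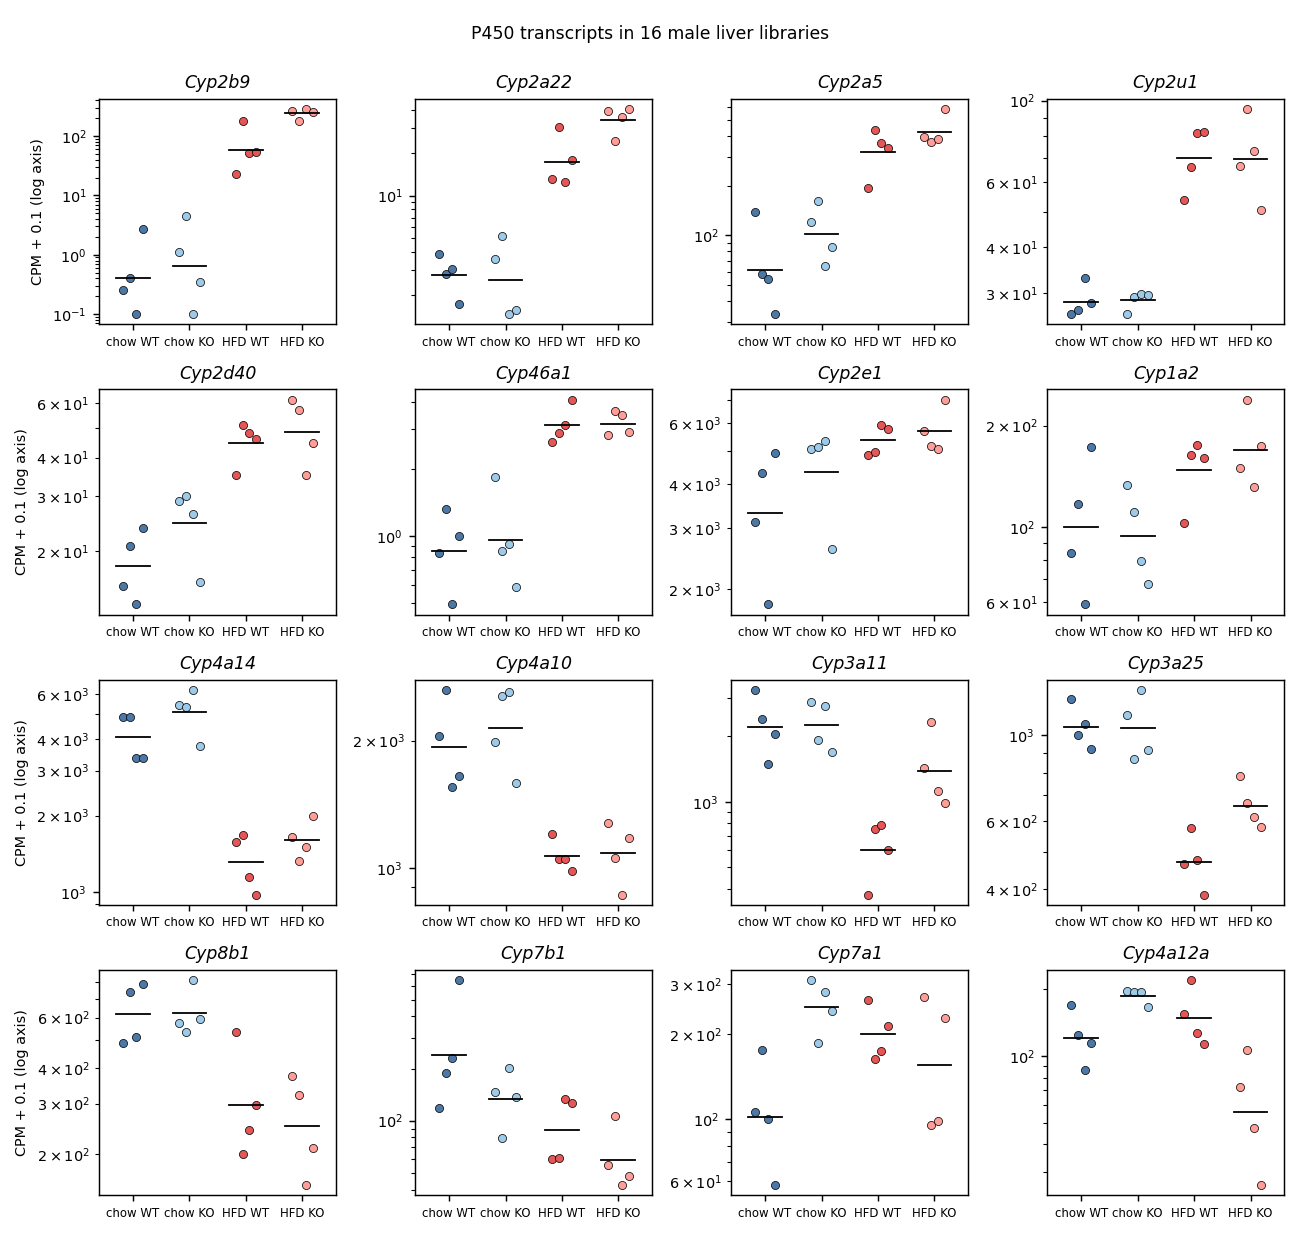
Abundance of 16 P450 genes in the 16 male liver libraries, in CPM plus 0.1 on log axes. Points are libraries, lines are geometric means of 4, and colours separate WT and KO on chow and HFD. Cyp2b9, Cyp2a22, Cyp2a5, Cyp2u1, Cyp2d40 and Cyp46a1 were higher in all HFD libraries than in any chow library, Cyp4a14, Cyp4a10 and Cyp3a25 were lower in all, and Cyp2e1 and Cyp1a2 overlapped.

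HFD changed the hepatic P450 profile in both directions. Of 65 members that passed the filter on low counts, 20 rose and 23 fell at a false discovery rate (FDR) of 10% in edgeR's quasi-likelihood test with Benjamini-Hochberg adjustment and genotype in the model. That is 66.2% of the members tested, where 40.8% of all 14476 genes tested were called (20.6% higher and 20.2% lower). The median log2 fold change of the members was 0.05, against 0.00 over all genes. Of 9 tested members of the CYP2A to CYP2W group 7 rose and 1 fell (median log2 fold change 2.12), and of 5 CYP2D genes 3 rose and none fell. Of 14 CYP4 genes 8 fell and 3 rose (median -0.56), of 4 CYP3A genes 3 fell (median -0.91), of 13 CYP2C genes 4 fell and 1 rose, and of 6 sterol and bile acid genes 3 fell and 1 rose. In 8 of the 20 that rose and 5 of the 23 that fell, the 8 HFD and 8 chow libraries did not overlap (12.3% and 7.69% of the members tested). Over all genes tested, 3.83% were called higher and 3.47% called lower without overlap. The other 34 members had too few counts to be tested.

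Cyp2b9, Cyp2b13, Cyp2a22, Cyp2a4 and Cyp2a5, which lie in a cluster on chromosome 7, were among the members with the largest rises. The 250 bases before the RefSeq transcription starts (GRCm38.p6, plus strand) are shown for the Cyp2b genes that moved in opposite directions and for the near-identical Cyp2a5 and Cyp2a4. Capitals mark bases that differ from the partner in a pairwise alignment, which is Cyp2b13 for Cyp2b9, Cyp2b9 for Cyp2b13 and Cyp2b10, Cyp2a4 for Cyp2a5, and Cyp2a5 for Cyp2a4. RefSeq held such an entry for 76 of the 99 members.
Cyp2b9, chr7:26173159-26173408: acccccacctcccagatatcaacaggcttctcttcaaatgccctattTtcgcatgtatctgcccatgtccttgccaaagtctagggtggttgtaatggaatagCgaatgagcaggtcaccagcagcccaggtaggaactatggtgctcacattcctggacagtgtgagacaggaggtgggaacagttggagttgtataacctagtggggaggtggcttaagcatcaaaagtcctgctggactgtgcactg
Cyp2b13, chr7:26061245-26061494: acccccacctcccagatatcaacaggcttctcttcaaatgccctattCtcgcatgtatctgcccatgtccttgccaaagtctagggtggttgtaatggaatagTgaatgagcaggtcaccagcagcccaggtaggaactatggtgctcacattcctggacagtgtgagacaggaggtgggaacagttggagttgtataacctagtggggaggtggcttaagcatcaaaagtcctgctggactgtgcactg
Cyp2b10, chr7:25897408-25897657: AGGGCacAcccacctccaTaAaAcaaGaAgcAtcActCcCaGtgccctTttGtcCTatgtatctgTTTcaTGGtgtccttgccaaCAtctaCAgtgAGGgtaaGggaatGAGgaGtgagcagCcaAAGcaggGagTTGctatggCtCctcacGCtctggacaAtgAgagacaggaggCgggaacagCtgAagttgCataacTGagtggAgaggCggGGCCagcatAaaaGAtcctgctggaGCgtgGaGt
Cyp2a5, chr7:26835089-26835338: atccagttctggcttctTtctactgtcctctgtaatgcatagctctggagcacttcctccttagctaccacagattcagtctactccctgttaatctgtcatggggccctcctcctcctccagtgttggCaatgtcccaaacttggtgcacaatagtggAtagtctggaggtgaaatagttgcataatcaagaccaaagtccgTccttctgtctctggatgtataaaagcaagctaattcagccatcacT
Cyp2a4, chr7:26306942-26307191: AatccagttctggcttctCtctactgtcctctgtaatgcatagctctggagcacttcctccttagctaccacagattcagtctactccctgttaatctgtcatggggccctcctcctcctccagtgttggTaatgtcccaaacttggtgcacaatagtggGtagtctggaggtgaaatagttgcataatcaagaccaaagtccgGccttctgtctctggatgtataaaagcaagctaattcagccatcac

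Cyp2b9 and Cyp2b13 shared 248 of these 250 bases (99.2%) and Cyp2a5 and Cyp2a4 245 (98%), whereas Cyp2b10 shared 179 (71.6%) with Cyp2b9. In the transcripts, 10.8% of 50-base stretches of Cyp2b9 and 20% of those of Cyp2b13 occur in another gene, and 40.8% of those of Cyp2a5 and 38% of those of Cyp2a4.

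Cyp2b9 is a steroid and drug hydroxylase that adult males express little. It had 0.154, 0.304, 0 and 2.61 CPM in WT and 0.993, 4.37, 0 and 0.245 CPM in KO livers on chow (replicates 1 to 4). On HFD it had 22.8, 177, 51 and 53.7 CPM in WT and 263, 182, 280 and 252 CPM in KO. Every HFD library exceeded every chow library, with a log2 fold change of 6.86 ± 0.61 (SE; adjusted p = 1.7e-07), and without WT chow replicate 4 it was 7.56. Its neighbour Cyp2b13 received 3 counts in the chow libraries together, with 6 of 8 at 0, and 680 on HFD, a ratio of 158 (95% exact interval 54 to 770, counting error only). By library Cyp2b13 had 0.0766, 4.7, 0.334 and 0.61 CPM in WT and 3.84, 2.73, 1.35 and 8.28 CPM in KO on HFD (adjusted p = 3.9e-05 for diet). Both genes were thus higher on HFD in both genotypes.

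Cyp2b10, the classical target of the constitutive androstane receptor and of phenobarbital, moved the other way. It had 0.339, 1.34, 1.37 and 2.79 CPM in WT and 1.99, 3.66, 3.54 and 0 CPM in KO on chow. On HFD it had 0.766, 0.286, 0.182 and 0.0963 CPM in WT and 0.288, 1.53, 0 and 1.53 CPM in KO. The groups overlapped, at about 1 CPM, and the log2 fold change was -1.66 ± 0.52 (adjusted p = 0.019).

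Cyp2a5, the coumarin 7-hydroxylase, had 138, 58, 54.3 and 33.1 CPM in WT and 120, 162, 65 and 84.4 CPM in KO on chow. On HFD there were 193, 437, 366 and 340 CPM in WT and 395, 370, 383 and 581 CPM in KO. The log2 fold change was 2.12 ± 0.25 (adjusted p = 4.5e-06), with no overlap. Cyp2a22 went from 1.36 to 5.12 CPM on chow to 12.4 to 40.3 CPM on HFD, also without overlap (3.11 ± 0.27, adjusted p = 1.4e-07). Cyp2a4, a testosterone 15α-hydroxylase typical of female liver, stayed at or below 0.463 CPM on chow and had 0.153, 1.52, 0.547 and 0.61 CPM in WT and 1.44, 2.28, 13.5 and 3.24 CPM in KO on HFD (3.11 ± 0.65). Without WT chow replicate 1 its log2 fold change was 4.29. Cyp2a12, already abundant on chow at 211 to 281 CPM, rose by less (0.36 ± 0.09). Cyp2g1 rose by 1.43 ± 0.47 from under 1 CPM, a call that ended when the share of ribosomal RNA entered the model (adjusted p = 0.146). Cyp2f2, the naphthalene-oxidising member of this group, did not pass (0.17 ± 0.14, adjusted p = 0.38).

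Other rises were of moderate size, and those of Cyp2u1, Cyp46a1, Cyp2d40 and Cyp2d22 were without overlap between diets. Cyp2u1, a hydroxylase of long-chain fatty acids, had 26.2, 26.9, 32.8 and 28.1 CPM in WT and 26.3, 29.3, 29.8 and 29.6 CPM in KO on chow. HFD libraries had 53.6, 65.9, 81.5 and 82.2 CPM in WT and 66.4, 94.6, 72.8 and 50.3 CPM in KO. The log2 fold change was 1.31 ± 0.11 (adjusted p = 1.2e-07) with no overlap between diets, while Cyp2r1, the vitamin D 25-hydroxylase, did not pass (0.13 ± 0.15). Cyp46a1, cholesterol 24-hydroxylase, was scarce at 0.392 to 1.74 CPM on chow and 2.53 to 3.98 CPM on HFD (1.84 ± 0.19, adjusted p = 9.4e-07). Of the CYP2D enzymes, Cyp2d40 rose by 1.16 ± 0.14, Cyp2d22 by 0.50 ± 0.08 and Cyp2d26 by 0.46 ± 0.09. The diets of Cyp2d26 overlapped, at 295 to 465 CPM on chow and 411 to 586 CPM on HFD. The abundant Cyp2d9, a male-biased steroid hydroxylase, did not pass (-0.32 ± 0.19, adjusted p = 0.2), nor did Cyp2d10 (-0.13 ± 0.08).

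Cyp2e1 rose by 0.47 ± 0.18 on the log2 scale (adjusted p = 0.0497). It had 3122, 4314, 1812 and 4930 CPM in WT and 5041, 5136, 5312 and 2612 CPM in KO on chow, and 4856, 4968, 5928 and 5756 CPM in WT and 5699, 5166, 5045 and 6998 CPM in KO on HFD. In 4 chow libraries Cyp2e1 lay below every HFD library, and the other 4 overlapped with HFD. Cyp1a2, which oxidises caffeine and aromatic amines, rose by 0.66 ± 0.20 (adjusted p = 0.014) with overlap. With the share of ribosomal RNA in the model neither call held, at adjusted p = 0.164 for Cyp2e1 and 0.114 for Cyp1a2. Cyp1a1 did not pass (0.95 ± 0.44, adjusted p = 0.11), and Cyp1b1, at or below 1.96 CPM, fell by 0.68 (adjusted p = 0.059, and 0.239 with the share of ribosomal RNA in the model). Cyp21a1, steroid 21-hydroxylase, rose from at most 0.294 CPM on chow (3.96 ± 0.68). On HFD Cyp21a1 had 2.07, 0.573, 3.95 and 3.53 CPM in WT and 0.352, 1.92, 0 and 0.0917 CPM in KO, with overlap.

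The members that fell included the most abundant CYP4 and CYP3A enzymes. Cyp4a14 had 4878, 4876, 3354 and 3373 CPM in WT and 5435, 5334, 6213 and 3732 CPM in KO on chow. On HFD it had 1575, 1683, 1154 and 981 CPM in WT and 1647, 1331, 1507 and 1985 CPM in KO. No library overlapped, and the log2 fold change was -1.65 ± 0.14 (adjusted p = 1.3e-07). Cyp4a10, the second PPARα-responsive fatty acid hydroxylase, went from 1557 to 2637 CPM on chow to 864 to 1274 CPM on HFD (-0.94 ± 0.13), and Cyp4a31 from 20.1 to 54.6 CPM to 2.7 to 15 CPM (-1.75 ± 0.20). Cyp4a32 fell by 0.90 and Cyp4a12b by 1.09, both with overlap and with 46.8% and 49.4% of their 50-base stretches present in another gene. The CYP4 genes together took 0.629% to 0.855% of TPM in WT livers on chow and 0.311% to 0.401% on HFD. Outside the 4A subfamily the changes were small: Cyp4b1 fell by 0.47, Cyp4f17 by 0.52 and Cyp4f16 by 0.69, while Cyp4f14 (which hydroxylates leukotrienes and vitamin E) rose by 0.54, Cyp4v3 by 0.32 and Cyp4f15 by 0.19. The calls of Cyp4v3, Cyp4f15 and Cyp4f16 ended with the share of ribosomal RNA in the model.

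Cyp3a11, the main drug-oxidising 3A enzyme of the mouse and a target of the pregnane X receptor, had 3255, 2395, 1493 and 2054 CPM in WT and 2870, 1911, 2760 and 1691 CPM in KO on chow. On HFD it had 375, 749, 778 and 601 CPM in WT and 1427, 2322, 1123 and 984 CPM in KO. The WT diets did not overlap and the KO diets did, with a log2 fold change over both of -1.27 ± 0.25 (adjusted p = 0.00063). Cyp3a25 fell without overlap, from 871 to 1310 CPM to 387 to 787 CPM (-0.91 ± 0.12), and Cyp3a59 fell by 0.91 ± 0.25, while Cyp3a13 did not pass (-0.29 ± 0.13). Of the CYP2C genes, which epoxidise arachidonic acid and oxidise drugs, Cyp2c40 and Cyp2c69 fell by 2.65 ± 0.41 and 2.82 ± 0.50, at no more than 2.45 CPM in any library. Cyp2c67 and Cyp2c68 fell by 0.41 and 0.45 and Cyp2c29 rose by 0.38, the last only without ribosomal RNA in the model. The abundant Cyp2c50, Cyp2c37, Cyp2c54 and Cyp2c70 did not pass. Among the arachidonic acid epoxygenases Cyp2j9 fell by 1.15 ± 0.16, Cyp2j6 rose by 0.28 ± 0.11 and Cyp2j5 did not pass (0.08 ± 0.10). The call of Cyp2j6 ended with the share of ribosomal RNA in the model, without libraries on another lane (adjusted p = 0.104 in both) and on leaving out any of 6 single libraries.

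Of the 6 sterol and bile acid genes, Cyp8b1, Cyp7b1 and Cyp39a1 fell. Cyp8b1 had 490, 737, 515 and 790 CPM in WT and 574, 536, 812 and 595 CPM in KO on chow, and 535, 199, 242 and 296 CPM in WT and 374, 321, 156 and 209 CPM in KO on HFD. All HFD libraries except WT replicate 1 were below all chow libraries (-1.11 ± 0.20, adjusted p = 0.00028). Cyp7b1, oxysterol 7α-hydroxylase of the alternative pathway, had 118, 189, 229 and 648 CPM in WT and 146, 78.8, 201 and 137 CPM in KO on chow, and 60, 60.8, 134 and 126 CPM in WT and 55.3, 106, 42.5 and 47.8 CPM in KO on HFD. It fell by 1.39 ± 0.31 with overlap, and in WT the log2 fold change was -1.64, or -0.90 without chow replicate 4. Cyp39a1, another oxysterol hydroxylase, fell by 0.75 ± 0.22. Cyp7a1, the rate-limiting cholesterol 7α-hydroxylase, did not pass (0.18 ± 0.28, adjusted p = 0.67), nor did the mitochondrial Cyp27a1 (0.03 ± 0.12). Cyp17a1, the steroid 17α-hydroxylase, fell by 2.34 ± 0.51, from 16.2 to 267 CPM on chow to 6.66 to 25.1 CPM on HFD. The value of 267 CPM was that of WT replicate 3, and without it the log2 fold change was -1.54.

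Genes that work with P450 enzymes or share their regulation were counted beside the 20.6% of all genes that rose and the 20.2% that fell. Of 8 redox partners 6 rose and none fell (median log2 fold change 0.31), with ferredoxin Fdx1 at 0.89 and cytochrome b5 reductase Cyb5r3 at 0.91, while the oxidoreductase Por did not pass (0.15, adjusted p = 0.253). Of 9 genes of haem synthesis 4 rose and none fell (median 0.22), led by the rate-limiting Alas1 at 1.88. Of 12 tested receptors that induce P450 genes 5 rose and 2 fell (median 0.09), including rises of the constitutive androstane receptor Nr1i3 (0.86) and of Ppara (0.41). Of 14 other PPARα targets 8 fell and 2 rose (median -0.42), with Ehhadh at -2.21 and Pdk4 at -2.02. Of 14 other genes of bile acid synthesis and transport 3 rose and 3 fell, close to the share of all genes. These medians stand beside 0.00 over all genes.

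Other lists were counted beside the same shares of all genes, and their part in the P450 changes was not tested. Of 14 clock output genes 9 rose and 4 fell, with Per2 at 2.61 and Clock at -0.98, and their summed level was 287 to 386 CPM on chow and 440 to 622 CPM on HFD with no overlap. Of 11 pericentral genes other than P450 8 rose and none fell (median 0.97), and of 11 periportal genes 6 fell and none rose (median -0.67). Of 10 male-biased liver genes 6 fell and 1 rose (median -0.69), and of 8 tested female-biased genes 4 rose and 2 fell (median 0.68), with Hao2 at 4.68. Acute phase genes summed to 3952 to 19413 CPM in WT livers on chow and to 3158 to 5217 CPM in the other 3 groups. Ribosomal RNA took up to 45.9% of counts in chow livers, at a median of 17.7% in KO against 0.461% in WT.

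**Figure D2:**
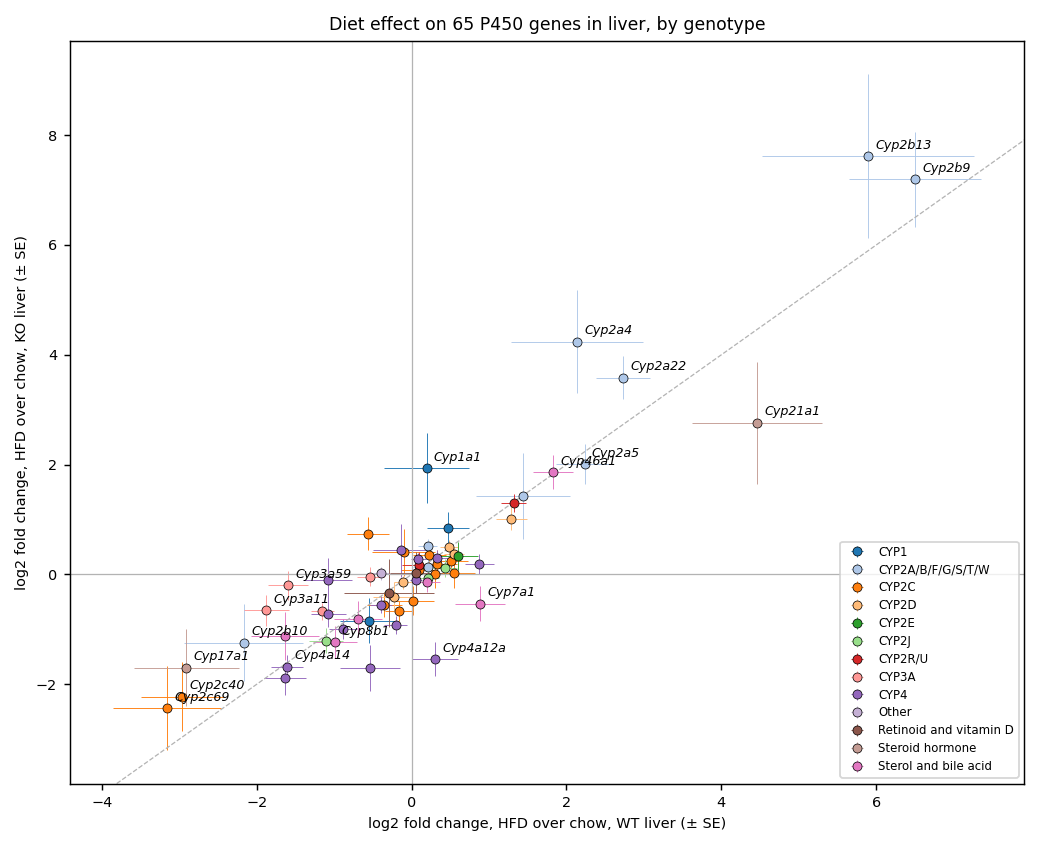
Log2 fold change of HFD over chow in WT livers (x axis) and KO livers (y axis) for the 65 P450 genes tested, with standard errors as bars, colours for classes and a dashed line of equality. Cyp2b9, Cyp2b13, Cyp2a22 and Cyp2a4 lie at the upper right, Cyp2c40 and Cyp4a14 at the lower left, and Cyp7a1, Cyp4a12a and Cyp3a11 off the line.

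The diet comparison was repeated within each genotype. In WT livers 15 members rose and 18 fell (30% of all genes called, 15.6% higher and 14.4% lower), and in KO livers 14 rose and 15 fell (21.6% of all genes called, 11.3% higher and 10.3% lower). The WT and KO contrasts share no library but share an estimate of the spread. The 21 members called in both moved the same way in both, and 12 were called in WT alone and 8 in KO alone. The matching counts over all genes are not given here, so whether this agreement is particular to the members was not tested. Being called in a single genotype did not by itself mark a difference, since 0 of 65 members passed for the difference of the diet effect between genotypes (0% of all genes called, with 9 members and 928 genes at an unadjusted p under 0.05). The DESeq2 Wald test called 0 members for it, whereas with no filter on low counts Cyp4a12a (adjusted p = 0.00473) and Cyp3a59 (0.0235) were called.

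The members with the smallest p for that difference were Cyp4a12a, Cyp3a59, Cyp2c55, Cyp4f17, Cyp7a1 and Cyp3a11. Cyp4a12a, the male-specific enzyme that forms the vasoconstrictor 20-HETE, had 171, 125, 86.3 and 115 CPM in WT and 195, 193, 194 and 166 CPM in KO on chow. On HFD it had 154, 220, 127 and 113 CPM in WT and 72.5, 107, 47.2 and 26.2 CPM in KO, so that it fell by 1.54 in KO (adjusted p = 0.0026) and was 0.30 in WT. The difference was -1.84 ± 0.43 (adjusted p = 0.275). Cyp7a1 had 106, 174, 99.3 and 58.2 CPM in WT and 310, 186, 280 and 240 CPM in KO on chow, the lowest KO library lying above the highest WT library. On HFD the genotypes overlapped, with 262, 162, 173 and 213 CPM in WT and 270, 95.3, 98.4 and 228 CPM in KO. Cyp7a1 rose with HFD in WT by 0.89 (adjusted p = 0.054), a call lost under 7 of the other settings, and in KO the log2 fold change was -0.53, with a difference of -1.42 ± 0.45 (adjusted p = 0.60). For Cyp3a11 the log2 fold change was -1.88 in WT and the difference 1.22 ± 0.40 (adjusted p = 0.62), and for Cyp3a59 -1.59 in WT and 1.40 ± 0.37 (adjusted p = 0.39).

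Between genotypes, no P450 gene passed in liver. Over both diets 0 of 65 members and 0% of all genes were called in edgeR's quasi-likelihood test (18 members and 1416 genes at an unadjusted p under 0.05), and the DESeq2 Wald test called 2 members. Within chow livers 0 members passed (0.00691% of all genes called, 15 members and 1194 genes under 0.05, 1 member by DESeq2). Within HFD livers 0 passed (0.0622% of all genes called, 0.0276% higher and 0.0345% lower, 18 members and 1171 genes under 0.05, 3 members by DESeq2). The share of all genes called by DESeq2 is not given here. The smallest p was that of Cyp2c38, with 48.2, 52.6, 34.5 and 19.2 CPM in WT and 124, 118, 64.6 and 62.2 CPM in KO on chow, and 60.8, 61.7, 50.8 and 53.8 CPM in WT and 102, 63.2, 85 and 122 CPM in KO on HFD. All KO libraries lay above all WT libraries of the same diet, with a log2 fold change of 0.98 ± 0.20 (adjusted p = 0.232), and it was called without chow liver KO replicate 4 (adjusted p = 0.0819). Cyp2c39 (0.67, adjusted p = 0.294) had the second smallest. The DESeq2 Wald test called Cyp2c38 (adjusted p = 0.00452) and Cyp2c39 (0.0222) over both diets. With no low-count filter the edgeR test called Cyp2c38 (adjusted p = 0.00223) and Cyp7a1 (0.0245) on chow. On HFD the smallest adjusted p were 0.144 for Cyp3a59 (1.24 ± 0.26), 0.167 for Cyp3a11 (1.23 ± 0.29) and 0.172 for Cyp4a12a (-1.25 ± 0.31). The DESeq2 Wald test called Cyp3a59 (adjusted p = 0.0294), Cyp3a11 (0.0592) and Cyp4a12a (0.0714) on HFD. Without HFD WT replicate 2, Cyp3a59, Cyp2b13, Cyp2b9 and Cyp2a22 passed on HFD.

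In fat, the P450 profile was smaller. Members together made 0.0451% to 0.605% of TPM, and 39 were expressed in SAT and 48 in VAT. Hepatocyte markers in fat stood at 0.217% of their level in liver, in CPM scaled separately for liver and fat. Many abundant hepatic P450 genes showed about the same ratio in TPM. The marker and P450 ratios are thus on unlike scales. A limit of 10 times that ratio (2.17%), chosen after the values were seen, left 31 of the 50 members expressed in fat above it and 19 at or below it. Those below were abundant liver genes such as Cyp4a14 (0.0956% of the liver level), Cyp3a11 (0.0875%), Cyp8b1 (0.112%) and Cyp2d26 (0.202%). Whether their reads came from fat cells was not tested. Cyp2f2 lay just inside the lower set, at 2.15%, and Cyp17a1 was next above it at 6.29%. These ratios are means over all fat groups, and Cyp2f2 reached 37 TPM in its highest fat group against 420 TPM in liver.

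Above the limit, Cyp2e1 led with a mean of 1020 TPM over the 12 fat groups and had the highest mean of all members in every group. It was followed by Cyp4v3 (80.3 TPM), a fatty acid hydroxylase, and Cyp4b1 (70.9 TPM), which oxidises fatty acids and small aromatic compounds. Next came the sterol 27-hydroxylase Cyp27a1 (53.8 TPM), Cyp20a1 (30.7 TPM), whose substrate is unknown, and Cyp1b1 (29.2 TPM), which hydroxylates oestrogens and retinoids. Cyp2d22, Cyp2j6, Cyp2j9, Cyp4f13, Cyp4f18 and Cyp4f17 lay between 10.1 and 22.6 TPM, and Cyp2u1 at 8.59 TPM. Cyp26b1, which breaks down retinoic acid, had 4.08 TPM. Some of these were more abundant in fat than in liver, where Cyp1b1 had 0.392 TPM, Cyp4f18 0.462 TPM, Cyp4b1 12.8 TPM and Cyp20a1 8.09 TPM. The 12 members expressed in fat and not in liver were Cyp11a1, Cyp1a1, Cyp1b1, Cyp26c1, Cyp2ab1, Cyp2j11, Cyp2j13, Cyp2s1, Cyp3a57, Cyp4a30b, Cyp4f18 and Cyp4f39. Over all fat groups, means were under 1 TPM for Cyp2j11 (0.0978), Cyp1a1 (0.328), Cyp2j13 (0.42), Cyp4a30b (0.727), Cyp26c1 (0.734), Cyp4f39 (0.935) and Cyp11a1 (0.994). The counts of 50 and 31 members include these. Cyp2j13, Cyp4a30b and Cyp11a1 were among the genes held by libraries with markers of neighbouring tissue, described next.

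Some fat libraries carried markers of neighbouring tissue. Epididymis markers summed to 12957 CPM in chow VAT KO replicate 1 and 6542 CPM in chow VAT WT replicate 2, and the former held 66.4 CPM of Cyp17a1, 20.1 CPM of Cyp4a12a, 19.2 CPM of Cyp4a30b and 29.2 CPM of Cyp2j13. HFD VAT WT replicate 4 held gonad markers (83.7 CPM) with 30.4 CPM of Cyp11a1, 30.9 CPM of Cyp17a1 and 5.68 CPM of Cyp21a1. Lymphocyte markers reached 260 to 855 CPM in all 4 chow SAT WT libraries and passed 200 CPM in 3 other SAT libraries. Fits without these libraries therefore keep no WT library of chow SAT. In SAT their diet effect has KO libraries alone on the chow side. Macrophage markers reached 1938 to 4791 CPM in male VAT on HFD, against 419 to 1496 CPM on chow.

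Cyp2e1 fell with HFD in both depots. In male SAT it had 1374, 1209, 1031 and 1806 CPM in WT and 1004, 685, 1183 and 1552 CPM in KO on chow, and 194, 206, 218 and 221 CPM in WT and 95.6, 61.1, 174 and 156 CPM in KO on HFD. In male VAT it had 3886, 1586, 4217 and 2346 CPM in WT and 583, 710, 1566 and 3246 CPM in KO on chow, and 170, 109, 14.6 and 64 CPM in WT and 110, 52.2, 31.3 and 90.5 CPM in KO on HFD. No male HFD library reached a male chow library of the same depot. On the log2 scale it fell by 2.95 ± 0.25 in SAT (adjusted p = 6.4e-07) and in VAT it fell by 4.77 ± 0.51 (adjusted p = 6.5e-07), and the fall was larger in VAT (difference -1.83 ± 0.54, adjusted p = 0.012), a test that called 14 of 51 members and 37.3% of all genes (18% higher and 19.3% lower). With the adipocyte score in the model the difference was -0.62 (adjusted p = 0.514). Adipocyte markers summed to 6882 to 14366 CPM in male VAT on HFD and to 8315 to 24246 CPM on chow. In females on HFD, Cyp2e1 had 386, 296 and 113 CPM in WT and 162, 115, 117 and 147 CPM in KO SAT, and 1512, 1368 and 339 CPM in WT and 489, 564, 318 and 451 CPM in KO VAT. Female VAT was above male VAT on HFD in every library (3.10 ± 0.48, adjusted p = 0.0001).

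**Figure D3:**
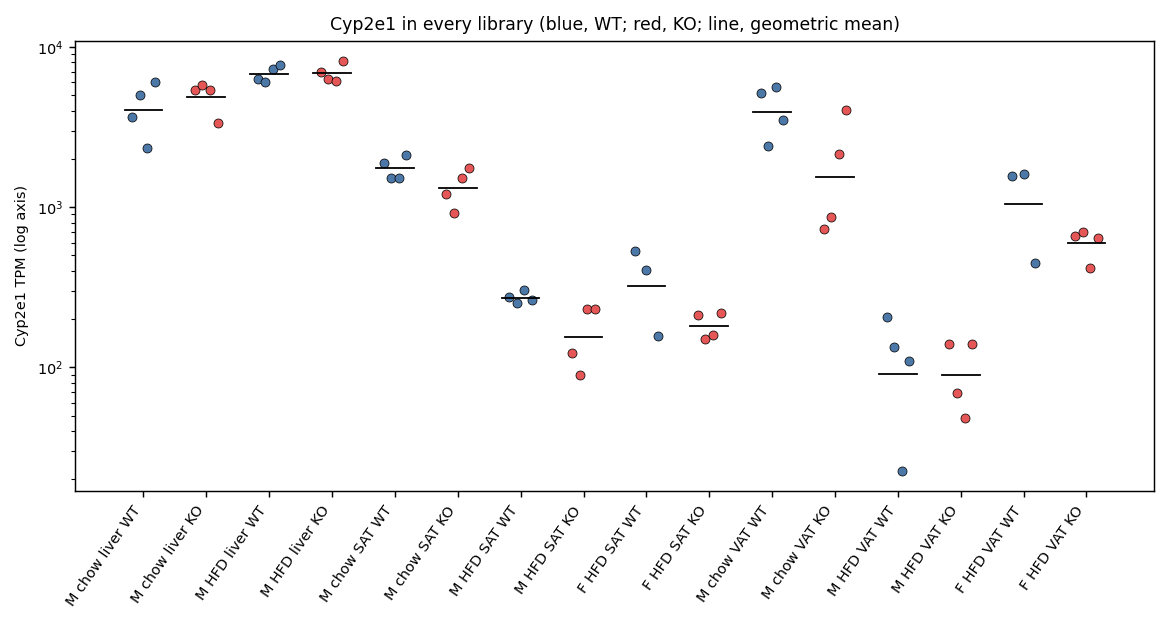
Cyp2e1 in each of the 62 libraries, in TPM on a log axis, by sex (M, F), diet, tissue and genotype. Points are libraries (blue WT, red KO) and lines are geometric means of 3 or 4. Liver libraries lie at or above 2333 TPM, and male HFD VAT lies lowest.

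In SAT 25 of 49 members tested rose and 10 fell, where 57.4% of all 18366 genes were called (28% higher and 29.4% lower), with a median log2 fold change of 0.55 against -0.03 over all genes. Of the members tested in SAT, 23 were below the liver-ratio limit and 26 above it. Of the 25 that rose 19 were below the limit, and of the 10 that fell 9 were above it. Summed hepatocyte markers were 33.5 to 102 CPM in male SAT on chow and 72.1 to 349 CPM on HFD. With that score in the model 4 rose and 7 fell. In VAT 13 of 55 rose and 10 fell, where 46.9% of all 18975 genes were called (21.8% higher and 25.1% lower), with a median of 0.50 against -0.03. Of the members tested in VAT, 27 were below the limit and 28 above it. Of the 13 that rose 9 were below the limit, and of the 10 that fell 9 were above it. With the hepatocyte score 14 members were called higher and 10 lower, and without the 3 libraries with epididymis or gonad markers 27 were called higher and 10 lower. The shares of all genes called in these other fits of SAT and VAT are not given here. Whether the members moved more than all genes did was not tested. The diet effect rests on males, since all female libraries were on HFD.

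**Figure D4:**
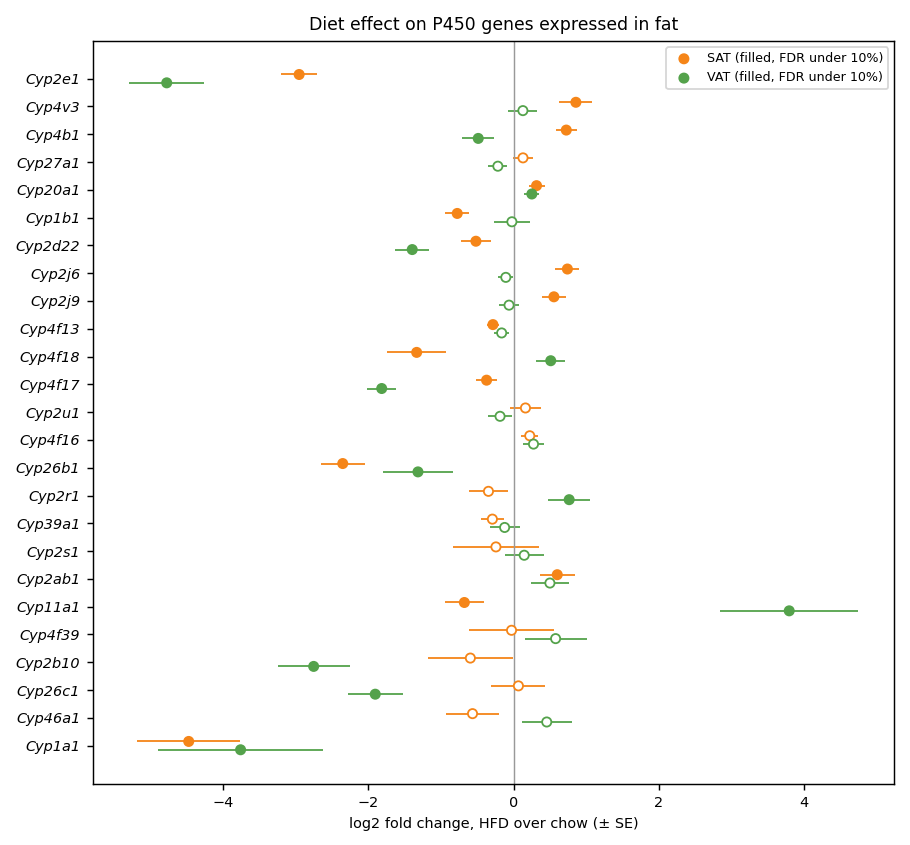
Log2 fold change of HFD over chow in SAT (orange) and VAT (green) for 25 P450 genes expressed in fat above the liver-ratio limit, with standard errors as bars. Filled points passed an FDR of 10%. Cyp2e1, Cyp26b1 and Cyp1a1 fell in both depots, Cyp4f17 and Cyp2d22 fell further in VAT, and Cyp4b1 rose in SAT and fell in VAT.

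Retinoid and oestrogen metabolism genes were among those that fell. Cyp26b1 in male SAT had 16.8, 21.3, 29.6 and 48.6 CPM in WT and 20.6, 31.6, 18.3 and 12.1 CPM in KO on chow, and 5.97, 5.35, 2.56 and 2.49 CPM in WT and 5.61, 8.49, 3.36 and 4.53 CPM in KO on HFD. The diets did not overlap (-2.35 ± 0.30, adjusted p = 1.1e-05). In VAT Cyp26b1 fell by 1.32 ± 0.49 and its relative Cyp26c1 by 1.90 ± 0.38, the latter at no more than 1.02 CPM. Without HFD VAT WT replicate 4 the log2 fold change of Cyp26b1 was -2.01. Cyp1b1 fell in SAT by 0.78 ± 0.17 (adjusted p = 0.0011), a call lost without the 7 libraries with lymphocyte markers, and in VAT it did not pass (-0.02). Cyp1a1, at most 2.95 CPM, fell in both depots (-4.47 ± 0.71 and -3.76 ± 1.14).

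Cyp2f2 in male SAT had 31.8, 39.4, 18.1 and 16.4 CPM in WT and 16.9, 5.1, 11.6 and 25.2 CPM in KO on chow and 0.549 to 3.13 CPM on HFD (-3.31 ± 0.39, adjusted p = 6.6e-06). It lies just below the liver-ratio limit, and its call in SAT held with the hepatocyte score in the model. Cyp4f17 fell in VAT without overlap, from 9.48 to 27.5 CPM on chow to 4 to 7.89 CPM on HFD in males (-1.81 ± 0.20, adjusted p = 6.5e-07), and less in SAT (-0.37 ± 0.15). Cyp4f13 fell by 0.28 ± 0.08 in SAT. Cyp2d22 fell by 1.39 ± 0.23 in VAT and 0.52 ± 0.20 in SAT, and Cyp2b10 by 2.75 ± 0.50 in VAT.

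Above the limit, in SAT Cyp4b1 rose by 0.73 ± 0.15, Cyp4v3 by 0.86 ± 0.23, Cyp2j6 by 0.74 ± 0.17, Cyp2j9 by 0.55 ± 0.17, Cyp2ab1 by 0.60 ± 0.24 and Cyp20a1 by 0.32 ± 0.11. Of these the call of Cyp4b1 alone held in all the other settings, and the other 5 ended without the libraries with lymphocyte markers or with the hepatocyte score in the model. Cyp27a1 did not pass in either depot, at 26.9 to 60.5 CPM across male SAT. In VAT Cyp2r1 rose by 0.77 ± 0.29, Cyp20a1 by 0.25 ± 0.10 and Cyp4f18 by 0.51 ± 0.20, and the calls of Cyp2r1 and Cyp4f18 ended with the adipocyte score in the model. Cyp11a1, which starts steroid synthesis from cholesterol, rose by 3.79 ± 0.95 in VAT and by 1.30 without HFD VAT WT replicate 4.

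Among the genes below the limit that rose in fat, the smallest p in SAT were those of Cyp2b9, Cyp2c50, Cyp2c29, Cyp2a5, Cyp2a12, Cyp4a10 and Cyp3a11. Cyp2b9 had 0, 0, 0.0435 and 0 CPM in WT and 0, 0.0378, 0.0807 and 0 CPM in KO male SAT on chow, and 0.125, 1.04, 0.218 and 1.68 CPM in WT and 1.94, 1.66, 0.549 and 0.749 CPM in KO on HFD (adjusted p = 5.5e-05). Its diets did not overlap, and its call held in the other settings in which it was tested, the hepatocyte score included. At least 10 counts in every library was not met. The hepatocyte score sums other genes, while Cyp2b9 in liver had a median of 0.274 CPM on chow and 179 CPM on HFD. The score therefore cannot adjust for Cyp2b9 reads of liver origin, and the source of these reads was not tested. Cyp3a11 was at 0 in all 4 WT and in 2 of 4 KO chow libraries, and on HFD it had 0.0418, 2, 0.0545 and 3.9 CPM in WT and 2.04, 8.17, 2.13 and 0.337 CPM in KO, with overlap. So few counts on chow leave the size of these folds undetermined, and none is given. In VAT the leading riser was Cyp2c23, an arachidonic acid epoxygenase, with 0.34, 0.786, 0.151 and 0.189 CPM in WT and 0.412, 2.08, 0.316 and 0.466 CPM in KO on chow, and 2.75, 4.22, 1.61 and 2.03 CPM in WT and 2.91, 2.74, 2.96 and 2.59 CPM in KO on HFD (2.18 ± 0.39, adjusted p = 0.00013). The diets of Cyp2c23 overlapped through 1 chow KO library, and its call held in the other settings in which it was tested. Cyp2c70, which makes muricholic acids in the mouse, rose in VAT by 1.69 ± 0.48, at no more than 1.1 CPM in males.

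Cyp4f18, a leukotriene B4 hydroxylase of neutrophils and other leukocytes, fell in SAT by 1.33 ± 0.40 (adjusted p = 0.011). It had 20.2, 22.2, 25.6 and 11.6 CPM in WT and 2.19, 5.32, 4.52 and 17.8 CPM in KO on chow, and 3.44 to 8.61 CPM on HFD in males. The 5 high chow libraries were those with lymphocyte markers, and without the libraries that carry these markers the log2 fold change was 0.21.

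Between depots in males, 5 members were higher and 4 lower in VAT, where 35.1% of all 18561 genes were called (20.4% higher and 14.7% lower). Cyp2s1, which is transcribed in epithelia, had 3.11 to 9.15 CPM in male VAT and 0.104 to 2.06 CPM in male SAT (2.89 ± 0.35, adjusted p = 4.4e-07), with no overlap. Cyp1b1 was higher in VAT by 0.74 ± 0.17 and Cyp20a1 by 0.21 ± 0.08. Cyp26b1 was lower in VAT by 1.45 ± 0.32 on the log2 scale, Cyp26c1 by 0.86, Cyp4b1 by 0.52 and Cyp2u1 by 0.36. The calls of Cyp4b1 and Cyp2u1 ended without the libraries with epididymis or gonad markers, and that of Cyp20a1 without those with lymphocyte markers. Cyp17a1 (5.83) and Cyp4a12a (3.23) were also called higher in VAT, with values of 3.33 and 1.73 without chow VAT KO replicate 1, and of 3.88 for Cyp17a1 without HFD VAT WT replicate 4.

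Between the sexes on HFD, 2 members were higher and 15 lower in female SAT (18.3% of all genes called, 8.43% higher and 9.89% lower), of which 14 of the 15 lay below the liver-ratio limit. Of the members tested in SAT, 23 lay below the limit and 26 above it. With the hepatocyte score in the model 3 were higher and 3 lower, and the share of all genes in that fit is not given here. Cyp4b1, the exception above the limit, was lower in females by 0.70 ± 0.15. Cyp3a57 was higher, with 2.68, 0 and 14.3 CPM in WT and 1.62, 7.04, 1.41 and 0.572 CPM in KO females against at most 0.514 CPM in male SAT (4.99 ± 0.83), and Cyp39a1 by 0.80 ± 0.16. Mammary epithelium markers summed to 147 to 358 CPM in female SAT and to at most 13.9 CPM in male SAT, and their part was not tested. In VAT 6 members were higher and 2 lower in females (34.6% of all genes called, 16.6% higher and 17.9% lower). Besides Cyp2e1, Cyp4f17 was higher by 1.20 ± 0.20 and Cyp26c1 by 1.96 ± 0.38. Cyp1b1 was lower, at 18.6 to 44.2 CPM in females and 53.2 to 110 CPM in males on HFD (-1.76 ± 0.27, adjusted p = 8.3e-05). Cyp2u1 and Cyp4b1 were higher in female VAT by 0.59 each, but with the adipocyte score in the model the values were -0.011 (adjusted p = 0.98) and 0.021 (0.981). Adipocyte markers summed to 15834 to 22714 CPM in female VAT. Cyp2b23 was higher by 2.12 ± 0.83 at no more than 0.8 CPM on HFD. Cyp11a1 was lower (-2.84 ± 1.03), and without male HFD VAT WT replicate 4 its log2 fold change was -1.05 (adjusted p = 0.162). The call of Cyp2b23 ended without libraries on another lane.

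Between genotypes in fat, 0 of 51 members passed over male SAT and VAT, where 3.97% of all genes were called (2.62% higher and 1.34% lower). edgeR's quasi-likelihood test put 9 members and 3158 genes at an unadjusted p under 0.05, and the DESeq2 Wald test called 3 members. In VAT of both sexes 0 of 55 passed (0.00527% of all genes called, 9 members and 1598 genes at an unadjusted p under 0.05, 0 members by DESeq2). In SAT of both sexes 3 of 49 fell and none rose (4.33% of all genes called, 3.45% higher and 0.888% lower): Cyp2f2 by 1.17 ± 0.31 (adjusted p = 0.057), Cyp2e1 by 0.67 ± 0.20 (0.079) and Cyp4f13 by 0.22 ± 0.07 (0.085). Cyp4f13 had 21.4, 18.8, 24.1 and 22.5 CPM in WT and 15.8, 16.8, 17.4 and 17.6 CPM in KO on chow, without overlap, and 18.7, 14.8, 15.1 and 16.3 CPM in WT and 16.8, 13.8, 15 and 15.7 CPM in KO on HFD, with overlap. For Cyp2e1 the HFD values of males did not overlap between genotypes and those on chow did. Lymphocyte markers summed to 260 to 855 CPM in chow SAT WT libraries and had a median of 22.5 CPM in KO, and adipocyte markers had medians of 11987 and 21371 CPM. The call of Cyp4f13 ended with the lymphocyte score (adjusted p = 0.13), with the adipocyte score (0.305) and without the libraries with lymphocyte markers (0.102), and that of Cyp2f2 with the adipocyte score. The fit without the libraries with lymphocyte markers held no WT chow SAT library, so it compared genotypes on HFD alone. None of the 3 calls held at an FDR of 5%, and each was lost on leaving out some single library.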

How the data were processed

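RNA was sequenced by the authors with a stranded TruSeq protocol and aligned with STAR 2.5.3a (per the submitters' processing notes) to GRCm38 with Gencode annotation. The deposited values are raw STAR counts per gene, 1 column per library, and the strand setting of the counts is not given in the sources used here. RNA quality and hidden factors of the study's own model were not used here. Symbols and exon lengths came from a GENCODE annotation of GRCm38 later than that of the authors (48435 of 48795 identifiers, 99.3%, matched). CPM were computed with TMM factors, separately for liver and fat, and TPM with merged exons as length and without the ribosomal RNA gene. Tests used edgeR 4.0.16 quasi-likelihood fits (R 4.3.3) over all genes kept by filterByExpr, with Benjamini-Hochberg adjustment and an FDR of 10%. Fits were tested on simulated data. Liver fits used diet and genotype. Male fat fits added depot, and fits per depot used diet, sex and genotype. Members described were those past the FDR (at most 15 per direction by p in liver and 8 in fat), the 10 highest by TPM in WT livers on chow and a list of named enzymes for each tissue. Alternatives were DESeq2 1.42.0, other scalings and filters, an FDR of 5%, a ribosomal RNA covariate and leaving out single libraries or those on another lane. Scores of hepatocyte, lymphocyte and adipocyte markers as covariates, and fits without the libraries that carry epididymis, gonad or lymphocyte markers or come from another flow cell, were added after seeing the data. The members and lists were chosen with earlier results of these data known.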

Additional observations from a re-analysis of the deposited data

Results flagged for a closer look

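In groups of 4 libraries, 11 of 164 sets of values had 1 library far from the other 3, where chance gives about 1 in 20. The value given is the gap to the nearest library as a share of the group's whole range on the log2 scale. In liver, the chow library labelled KO replicate 4, whose Fam13a lay within the WT range, was lowest for Cyp2e1 (2612 CPM against 5041 to 5312, share 0.926) and Cyp4a12a (166 CPM against 193 to 195, 0.937). WT HFD replicate 1, the HFD liver library on another lane, was lowest for Cyp1a2 (103 CPM against 161 to 175, 0.841) and highest for Cyp17a1 (25.1 CPM against 6.66 to 8.31, 0.837). WT chow replicate 4 was lowest for Cyp2f2 (208 CPM against 351 to 363, 0.939).

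In fat, female HFD SAT KO replicate 2, which carried lymphocyte markers, was lowest for Cyp27a1 (29.1 CPM against 37.3 to 39, 0.849) and Cyp20a1 (15.7 CPM against 23.5 to 24.1, 0.946) and highest for Cyp26b1 (8.42 CPM against 3.44 to 3.9, 0.865). Male HFD SAT WT replicate 2, also with these markers, was lowest for Cyp4b1 (50.9 CPM against 73.7 to 78.8, 0.848). Male HFD VAT WT replicate 4, with gonad markers, was lowest for Cyp1b1 (53.2 CPM against 85.2 to 92, 0.859). The chow VAT library labelled KO replicate 4, whose Fam13a lay within the WT range, was highest for Cyp2f2 (17 CPM against 1.1 to 1.87, 0.836). No cause was tested.

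The diet effect differed between VAT and SAT of males for 14 members, by the interaction test at an FDR of 10% (37.3% of all genes called). The difference, VAT minus SAT on the log2 scale, was positive for Cyp11a1 (4.28, and 2.09 without HFD VAT WT replicate 4), Cyp4f18 (1.78), Cyp2r1 (1.08) and Cyp1b1 (0.77). It was negative for Cyp2b10 (-2.27), Cyp26c1 (-1.96), Cyp2e1 (-1.83), Cyp4f17 (-1.42), Cyp4b1 (-1.19), Cyp2d22 (-0.85), Cyp2j6 (-0.84), Cyp4v3 (-0.72) and Cyp2j9 (-0.60). For Cyp4a12a the difference was -6.55, and its call ended without chow VAT KO replicate 1 (-3.21, adjusted p = 0.223). That library carried epididymis markers, and Cyp4a12a had no value in the fit of SAT alone. Calls of Cyp4f17, Cyp26c1, Cyp2j6 and Cyp11a1 held under every other setting in which they were tested. With the lymphocyte score in the model 5 members were called, and with the adipocyte score 6.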

How the results depend on the processing

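Of 11043 values of single genes under other settings, 10466 kept direction and side of the threshold, 487 lost their call, 77 gained one and 13 reversed, and for 7 more DESeq2 gave no adjusted p. Over the settings in which a member was tested, 33 of 43 diet calls held in liver, 8 of 35 in SAT and 11 of 23 in VAT. Scarce members were not tested with at least 10 counts in every library. Of 99 members, 34 were not tested in liver, 15 of them with no count in any of 16 livers. Rate ratios and intervals cover counting error only. No paired analysis was possible because replicate numbers only name samples within a group and no label ties equal numbers to a shared animal, litter or day. For other counts the cause was not tested. Counts of members under other settings, DESeq2 included, are given without the share of all genes called there. Whether they moved more than the calls over all genes was not tested.

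For KO against WT in liver, 2 members were called with no low-count filter and 2 with the DESeq2 Wald test (0 in the reported fit). On chow the counts were 2 with no filter, 1 with DESeq2 and 3 with the ribosomal RNA share, and on HFD 6 with no filter and 3 with DESeq2. The difference of the diet effect between genotypes had 2 with no filter. For KO against WT in male SAT and VAT (0), the counts were 1 with no filter, 2 with at least 10 counts in every library, 3 with DESeq2, 4 with the hepatocyte score, 1 with the adipocyte score and 1 without the libraries with epididymis or gonad markers. For KO against WT in SAT (3), they were 0 at an FDR of 5%, 1 with no filter, 0 without libraries on another lane, 5 with the hepatocyte score and 1 with the adipocyte score. VAT against SAT (9) gave 14 with no filter, 4 with at least 10 counts and 16 without the libraries with lymphocyte markers.

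HFD against chow in SAT (35) gave 13 with at least 10 counts, 11 with the hepatocyte score and 19 without the libraries with lymphocyte markers. In VAT (23) it gave 7 with at least 10 counts and 37 (27 higher and 10 lower) without the libraries with epididymis or gonad markers. Female against male in SAT (17) gave 11 at an FDR of 5%, 4 with at least 10 counts, 11 with the ribosomal RNA share and 6 with the hepatocyte score, and in VAT (8) 5 with the adipocyte score. The difference of the diet effect between depots (14) gave 5 with the lymphocyte score and 6 with the adipocyte score.

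Leaving out each library in turn gave 41 to 45 calls for diet in liver, 27 to 36 within WT, 24 to 33 within KO, 0 to 1 for KO in liver, 0 to 1 on chow and 0 to 4 on HFD. It gave 0 to 2 for KO in male fat, 0 to 5 for KO in SAT, 8 to 12 between depots, 34 to 39 for diet in SAT and 18 to 33 in VAT, with the most without chow VAT WT replicate 2. It gave 11 to 21 for sex in SAT, 5 to 11 for sex in VAT and 11 to 16 for the difference between depots.

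With the hepatocyte score, diet in SAT reversed for Cyp2d26 (-0.12), Cyp2j5 (-0.052), Cyp4a14 (-0.10), Cyp7a1 (-0.45) and Cyp8b1 (-0.00086), and sex in SAT for Cyp2a5 (0.64), Cyp3a11 (0.38) and Cyp4a10 (0.22). Without the libraries with lymphocyte markers, diet in SAT reversed for Cyp2u1 (-0.62, adjusted p = 0.00345) and Cyp4f18 (0.21). With the adipocyte score, diet in VAT reversed for Cyp2u1 (0.34) and Cyp4b1 (0.047), and sex in VAT for Cyp2u1 (-0.011). Without chow SAT KO replicate 2, the diet effect in SAT went from 3.24 to 6.88 for Cyp2j5 and from 2.92 to 5.85 for Cyp4a14. Without chow VAT WT replicate 2, that in VAT went from 2.80 to 5.52 for Cyp2c29, and without HFD VAT WT replicate 4 the sex effect in VAT went from -2.84 to -1.05 for Cyp11a1.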
